A study of Homo sapiens with 9 samples.

Results

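Brain-derived neurotrophic factor (BDNF) and 5 genes of the same signalling system, NTF3, NTRK2, NTRK3, NGFR and SORT1, were followed in RKO cells with a targeted DIP2C gene. RKO is a human colorectal carcinoma line, and DIP2C is a member of the disco-interacting protein family. The genes were found by symbol, and all 6 were among the 23619 genes of the files. BDNF was chosen by its low level in every knockout clone of these same samples, so its values are given as a description with no test, while the other 5 were listed for their place in the pathway. Of the 6 genes, 4 passed the filter on low counts (BDNF, NTRK2, NTRK3 and SORT1), and NTF3 and NGFR did not.

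The study compared parental RKO cells (2 samples) with clones in which exon 9 of DIP2C had been targeted, namely DIP2C-/- clones E3 and C10 and the 5 DIP2C+/- clones A6-C9, A9-A12, F6-A7, G1-A5 and H9-A4. The cells were grown for 48 h and RNA was sequenced from 1 library per clone. Each clone grew from a single cell, the selection cassette was removed with Cre, and the study's text derives its DIP2C-/- clones from 1 DIP2C+/- clone, so the clones of a group are not fully independent and no clone with an intact DIP2C passed through the same steps. The study's text also names fewer DIP2C+/- clones than the labels do, so some of the 5 may go back to the same targeted cell. The p-values below cover only the spread between these samples.

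Neurotrophins are secreted growth factors, made as precursors that proteases cut to the mature form. Mature BDNF and NTF4 bind the receptor tyrosine kinase NTRK2 (TrkB), and NTF3 binds NTRK3 (TrkC), which signal through adaptor proteins to the MAP kinase, PI3 kinase and phospholipase C pathways. All neurotrophins also bind NGFR, the common neurotrophin receptor, which pairs with the sorting receptor SORT1 (sortilin) to bind the uncut precursors. The system is best known for survival and plasticity of neurons, and it is also studied in carcinomas.

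BDNF lies on the minus strand of chromosome 11 (chr11:27676440-27743605, GRCh37) and starts from several alternative first exons, each with its own promoter. RefSeq entries gave 5 start sites whose upstream 250 bases were found in GRCh37. Of those, 2 are printed because they hold motifs of factors studied at this gene, the start site lying just after the last base and the motif being in capitals. The window at chr11:27742327-27742576 (minus strand) holds the E-box CACGTG, the site bound by the USF factors, 42 bases before the start.
BDNF window with E-box: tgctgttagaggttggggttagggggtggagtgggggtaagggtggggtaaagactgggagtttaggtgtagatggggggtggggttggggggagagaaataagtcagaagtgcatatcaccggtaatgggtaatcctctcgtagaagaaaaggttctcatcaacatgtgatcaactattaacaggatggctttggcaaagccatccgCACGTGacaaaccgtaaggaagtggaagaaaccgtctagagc
The window at chr11:27723169-27723418 (minus strand) holds TGACGT, the core shared by sites of the cyclic AMP response element, on its other strand 48 bases before the start.
BDNF window with TGACGT: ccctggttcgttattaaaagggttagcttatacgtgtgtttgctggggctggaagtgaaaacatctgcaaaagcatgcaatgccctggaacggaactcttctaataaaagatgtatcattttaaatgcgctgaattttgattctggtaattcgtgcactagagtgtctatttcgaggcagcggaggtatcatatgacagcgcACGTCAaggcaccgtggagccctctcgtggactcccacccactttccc
Both strands were searched. Of 35116 upstream windows of the same length, 6.34% held CACGTG and 7.1% held TGACGT. The full element TGACGTCA, in which TGACGT is contained, was in 1.65% of windows and in none of the 5 at BDNF, and the GC box GGGCGG, in 42.6% of windows, was in 2 of them. The 5 windows held 15, 6, 11, 11 and 3 CpG dinucleotides from the most upstream start to the most downstream, against a median of 11 over all windows. The files give 1 value per gene, so they do not show which start sites were in use.

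Total counts were 14772593 to 21486483 per sample. Levels are CPM (counts scaled to a common library size) after TMM normalisation, and 3 counts, the smallest number taken as detectable, corresponded to 0.148 to 0.193 CPM on this scale. Of 8 colon epithelium markers, KRT18 was at 121 to 293 CPM, CDX2 at 15.6 to 19.8 CPM and KRT8 at 7.0 to 21.5 CPM. KRT8 was lower in every clone, at up to 20.7 CPM, than in both parental samples (20.8 and 21.5 CPM). This order was seen for 5.56% of the genes tested. EPCAM was at up to 1.02 CPM apart from 3.78 CPM in H9-A4, and CDH1, KRT19, KRT20 and VIL1 were under 1 CPM in every sample. Clone H9-A4 stood apart from the other DIP2C+/- clones, and results that rest on it are given with and without it. It was set apart on these same samples, a choice that p-values without it do not cover. A gene was called when its Benjamini-Hochberg adjusted p in edgeR's quasi-likelihood test, over all 15532 genes tested, was under 0.05. With all 9 samples this called 0.00644% of genes for DIP2C-/- against parental RKO, 0.0966% for DIP2C+/-, 0.18% for all 7 clones together and 0.0% for DIP2C+/- against DIP2C-/-. Without H9-A4 it called 4.76%, 7.95% and 8.95% of 15390 genes in the first 3 comparisons.

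DIP2C itself was at 60.9 and 70.8 CPM in parental RKO and at 17.4 and 22.8 CPM in the DIP2C-/- clones. In the DIP2C+/- clones it was at 46.9 CPM in F6-A7, 56.2 in H9-A4, 38.9 in A9-A12, 41.7 in G1-A5 and 33.6 in A6-C9. All 7 clones lay below both parental samples, as they did for 5.56% of the genes tested, with H9-A4 the closest to them. The log2 fold change was -1.71 (SE 0.25) for DIP2C-/- and -0.60 (SE 0.20) for DIP2C+/- (edgeR adjusted p = 0.0998 and 0.386 with 9 samples, 0.00103 and 0.0285 without H9-A4). A gene total does not show whether exon 9 is missing from the transcripts.

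BDNF was at 6.64 CPM and 6.69 CPM in the parental samples, a mean of 6.67 ± 0.03 CPM (SD, n = 2) resting on about 156 and 115 reads. The DIP2C-/- clones had 1.02 CPM in E3 and 0.959 CPM in C10, from about 21 and 18 reads. The DIP2C+/- clones had 0.615 CPM in F6-A7, 0.643 in H9-A4, 0.422 in A9-A12, 0.298 in G1-A5 and 0.773 in A6-C9, from 7 to 16 reads. No clone came near the parental samples, and every clone kept some BDNF reads. In bulk RNA, fewer BDNF-expressing cells and less BDNF RNA per cell cannot be told apart.

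The parental mean was 6.75 times that of the DIP2C-/- clones (0.987 ± 0.040 CPM, SD, n = 2) and 12.1 times that of the DIP2C+/- clones (0.55 ± 0.189 CPM, SD, n = 5). Single clones were 6.56-fold (E3) to 22.4-fold (G1-A5) below the parental mean. The exact 95% Poisson interval was 0.12 to 0.614 CPM in G1-A5, from 7 reads, and 0.629 to 1.55 CPM in E3. These intervals cover counting error only. Parental samples both over 4 times the highest of the 7 clones were seen for 13 of 15532 genes (0.0837%), BDNF among them by the way it was chosen.

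**Figure D1:**
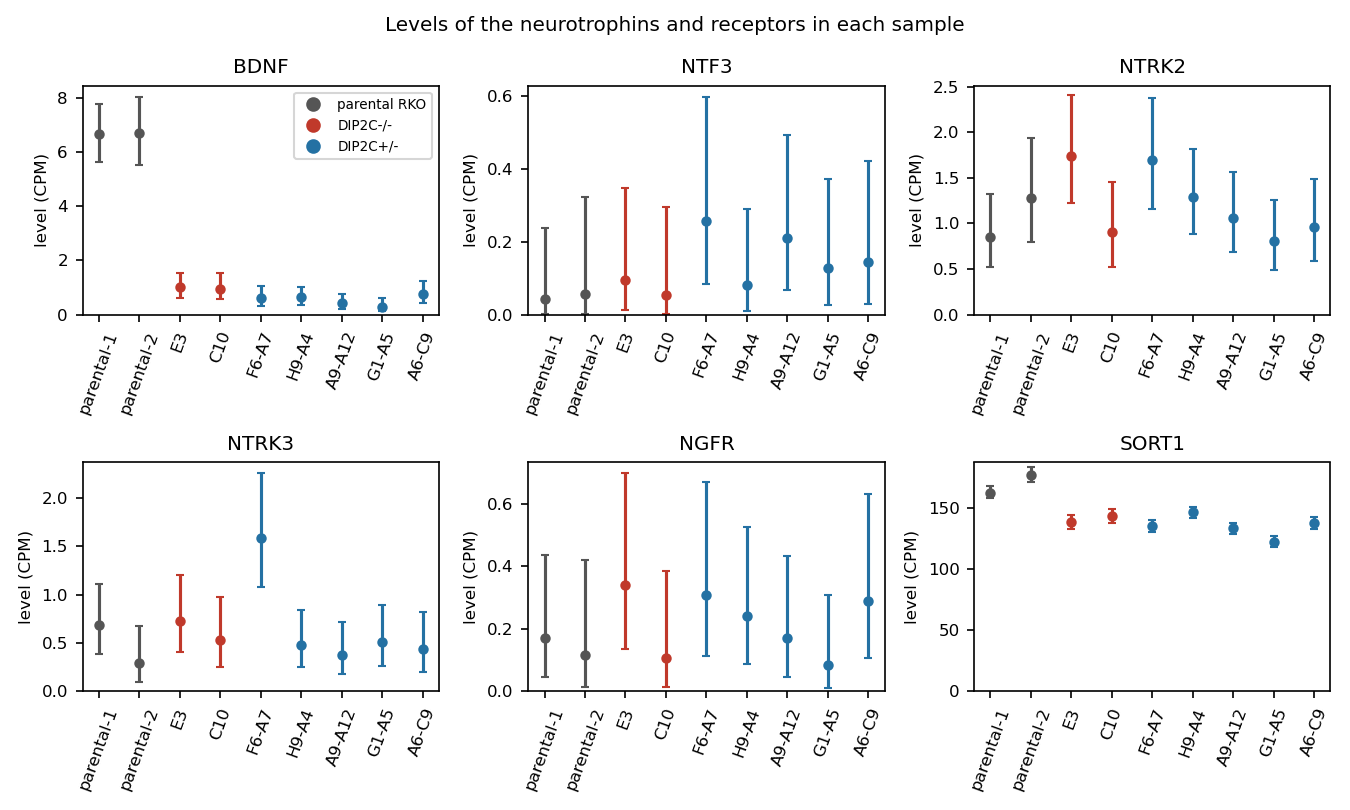
Level in CPM (vertical axis, linear, from 0) of BDNF, NTF3, NTRK2, NTRK3, NGFR and SORT1 in each of the 9 samples (horizontal axis), with exact 95% Poisson intervals of the counts as bars. BDNF is at 6.64 and 6.69 CPM in parental RKO and at most 1.02 CPM in the clones. SORT1 is at 123 to 147 CPM in the clones against 163 and 177 CPM in parental RKO. The intervals of NTF3 and NGFR overlap. Those of NTRK2 barely meet between some clones, at 1.22 to 2.41 CPM in E3 and 0.487 to 1.26 CPM in G1-A5. For NTRK3 the interval of F6-A7 (1.08 to 2.26 CPM) lies highest.

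Clones did not have the same order by BDNF as by residual DIP2C. The DIP2C-/- clones kept 26.4% and 34.6% of the parental mean of DIP2C and 15.2% and 14.4% of that of BDNF. The DIP2C+/- clones kept 51.0% to 85.4% of DIP2C but only 4.47% to 11.6% of BDNF, so the ranges of the genotypes did not overlap for either gene and lay in opposite order. The DIP2C-/- and DIP2C+/- clones were apart in this way, in either direction, for 11.9% of the genes tested. For BDNF the order of the genotypes rests on few reads. C10 had 18 reads (exact Poisson interval 0.568 to 1.52 CPM) and A6-C9 had 16 (0.442 to 1.25 CPM). Across the genotypes only the intervals of E3 (0.629 to 1.55 CPM) and G1-A5 (0.12 to 0.614 CPM) did not meet. The intervals of all other such pairs overlapped, so the order of the genotypes for BDNF is uncertain. H9-A4, with 85.4% of parental DIP2C, had 9.65% of parental BDNF. The difference in BDNF between the genotypes was not tested, since both enter the choice of the gene.

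**Figure D2:**
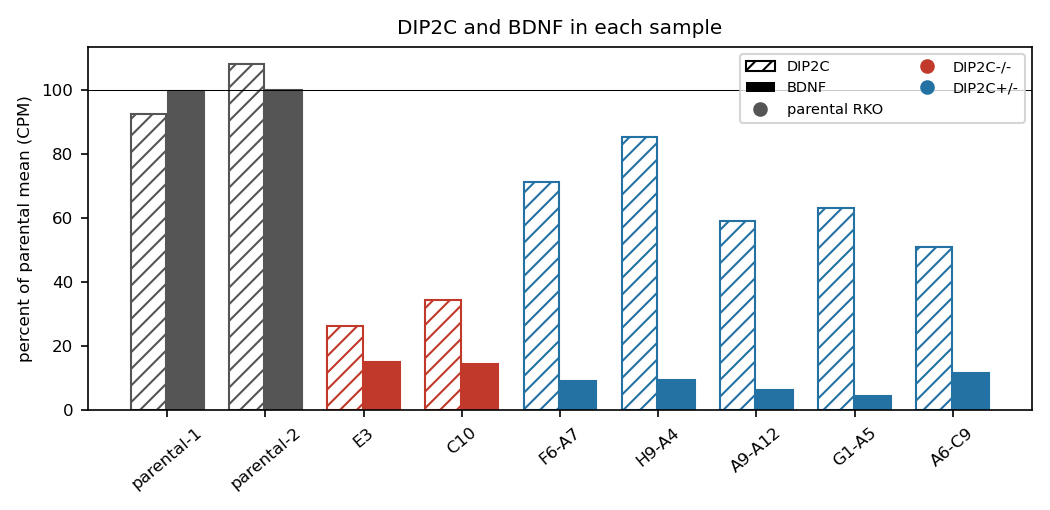
Level of DIP2C (hatched bars) and BDNF (filled bars) in each sample as percent of the mean CPM of the 2 parental samples (vertical axis, from 0), coloured by genotype. DIP2C is at 26.4% and 34.6% in the DIP2C-/- clones and 51.0% to 85.4% in the DIP2C+/- clones, while BDNF is at 15.2% and 14.4% and at 4.47% to 11.6%.

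Among the other neurotrophins, NTF4 came closest to a lower level in the clones without being called. NTF4, the second ligand of NTRK2 (chr19:49564323-49568333), had about 28 and 31 reads in parental RKO (1.19 and 1.80 CPM). It had 0 reads in E3, which allows up to 3 counts, 11 in C10, 8 in F6-A7, 15 in H9-A4, 2 in A9-A12, 31 in G1-A5 and 7 in A6-C9. G1-A5, at 1.32 CPM, lay between the parental samples and the other 6 clones lay below both. The log2 fold change over all clones was -1.66 (SE 0.80, edgeR adjusted p = 0.396). It ran from -2.45 without C10 to -1.33 without parental sample 2, and for DIP2C-/- alone it was -2.32, with -1.39 when E3 was left out. Without C10 the DIP2C-/- value rested on E3 alone, with its 0 reads, and is no measure of size. NTF3, the ligand of NTRK3 (chr12:5541274-5630702), had 1 read in each parental sample, 2 and 1 in the DIP2C-/- clones and 2 to 5 in the DIP2C+/- clones. In 7 of 9 samples it was under 3 counts, and a difference was not detectable at this depth.

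The Trk receptors were at low levels in every group. NTRK2, the BDNF receptor (chr9:87283290-87710666), was at 0.852 and 1.28 CPM in parental RKO and at 1.74 and 0.905 CPM in E3 and C10. In the DIP2C+/- clones NTRK2 ranged from 0.808 to 1.69 CPM, with a median of 1.05 CPM. The groups overlapped fully, and the log2 fold change over all clones was 0.17 (SE 0.46, edgeR adjusted p = 0.913), a standard error that leaves room for a change of either sign. NTRK3, the NTF3 receptor (chr15:88402982-88800022), was at 0.682 and 0.291 CPM in parental RKO, at 0.725 and 0.533 CPM in E3 and C10, and at 0.38 to 0.511 CPM in 4 of the DIP2C+/- clones. In F6-A7 NTRK3 stood at 1.59 CPM, from about 31 reads. Over all clones the log2 fold change of NTRK3 was 0.43 (SE 0.65, edgeR adjusted p = 0.827).

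NGFR (chr17:47572655-47592370) was barely expressed. It had about 4 and 2 reads in parental RKO, 7 and 2 in the DIP2C-/- clones and 2 to 6 in the DIP2C+/- clones, at most 0.339 CPM. Fitted without the filter, its log2 fold change over all clones was 0.64 (SE 0.71, edgeR adjusted p = 0.848), and that of NTF3 was 1.23 (SE 0.88, edgeR adjusted p = 0.692).

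SORT1, which sorts precursor neurotrophins and other cargo between the Golgi, endosomes and the cell surface, was the one abundant gene of the system. SORT1 (chr1:109852190-109940540, minus strand) was at 163 and 177 CPM in parental RKO and at 138 and 144 CPM in E3 and C10. In the DIP2C+/- clones it was at 135 CPM in F6-A7, 147 in H9-A4, 134 in A9-A12, 123 in G1-A5 and 138 in A6-C9. All 7 clones lay below both parental samples, an order that 5.56% of genes had, while 5.34% had all clones above both. The log2 fold change over all clones was -0.31 (SE 0.11), and it did not pass the test with 9 samples (edgeR adjusted p = 0.319) or without H9-A4 (-0.33, SE 0.11, adjusted p = 0.0847). Between the genotypes, DIP2C+/- less DIP2C-/-, it was -0.06 (SE 0.12, edgeR adjusted p = 0.967).

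Compared per kilobase of annotated exon, SORT1 led in parental RKO at 17.8 to 19.4 CPM per kb, and BDNF followed at 0.859 to 0.864 CPM per kb. NTF4 was next at 0.509 to 0.769 CPM per kb, with no overlap with BDNF in these 2 samples. NGFR (0.0281 to 0.0411), NTRK2 (0.0257 to 0.0386), NTRK3 (0.0109 to 0.0255) and NTF3 (0.0146 to 0.0199 CPM per kb) came last of the 6 members. NGFR overlapped with NTRK2 and NTRK3 with NTF3, and NTRK2 lay just above NTRK3. In the clones BDNF was at 0.0385 to 0.131 CPM per kb. The length counts all exons of all isoforms, which lowers the values of genes with many long ones such as NTRK2 and NTRK3. The relatives of SORT1, namely SORL1, SORCS1, SORCS2 and SORCS3, were between 0.253 and 2.37 CPM in all samples and none was called.

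The rest of the pathway was described through 8 lists, the neurotrophins and receptors included, of 112 genes without BDNF, 95 of which were tested. With all 9 samples edgeR called none of the 95 in any of the 3 comparisons with parental RKO. An unadjusted p under 0.05 was seen for 15 (DIP2C-/-), 16 (DIP2C+/-) and 18 (all clones) of them. Over all 15532 genes tested, such a p was seen for 1970, 1796 and 2079 genes in the same comparisons. The median log2 fold change of the 95 over all clones was 0.081, beside 0.02 over all genes tested. DESeq2 called 1, 2 and 1 of the 95, NEDD4L each time and CNTF in DIP2C+/-, beside 250, 187 and 289 of all 15532 genes. Without H9-A4, edgeR called 7 (4 higher, 3 lower), 12 (8 higher, 4 lower) and 13 (9 higher, 4 lower). The 13 are 13.7% of those tested, beside 8.95% of all genes, and the remaining calls below are from this fit of 8 samples.

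**Figure D3:**
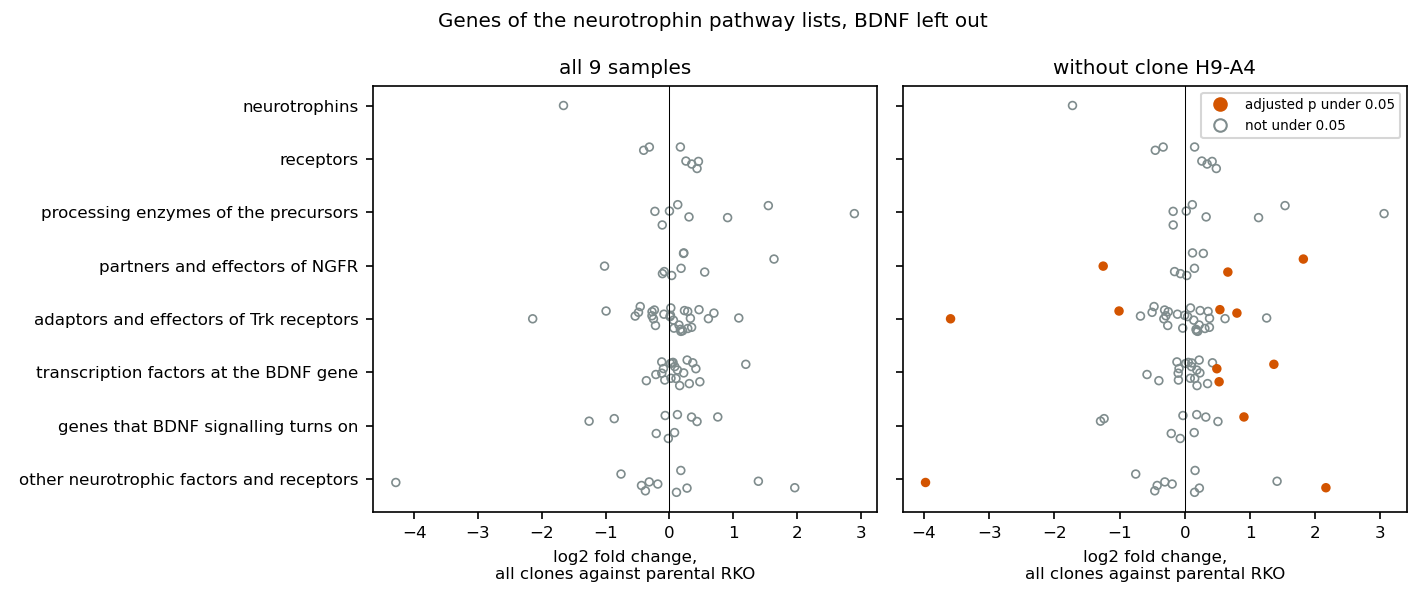
Log2 fold change of all clones against parental RKO (horizontal axis) for each tested gene of 8 pathway lists (rows, points spread vertically for legibility, BDNF left out), with all 9 samples (left) and without clone H9-A4 (right). Filled points have an edgeR adjusted p under 0.05, which is 0 of 95 genes on the left and 13 of 95 on the right.

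Adaptors and effectors of the Trk receptors gave 2 higher and 2 lower genes of 29, beside 690 higher and 688 lower of all 15390 genes. IRS1, an adaptor that links receptor kinases to PI3 kinase, was at 316 and 333 CPM in parental RKO and at 21.8 to 31.6 CPM in 6 clones, and H9-A4 had 461 CPM. Without H9-A4, IRS1 fell by 3.59 on the log2 scale (SE 0.12, edgeR adjusted p = 5.06e-08). NEDD4L, a ubiquitin ligase, was at 142 and 148 CPM in parental RKO and 52.0 to 95.1 CPM in the clones, with H9-A4 among them at 77.7 CPM. NEDD4L was called in the fit without H9-A4 (-1.01, SE 0.18, edgeR adjusted p = 0.00638) but not with 9 samples (adjusted p = 0.0956). SHC1, an adaptor that docks on activated Trk receptors, rose by 0.80 (SE 0.14) and SH2B3, an adaptor that dampens kinase signalling, by 0.54 (SE 0.15) on the log2 scale without H9-A4.

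None of 8 tested precursor-processing genes was called, while 8.95% of all genes were called in the fit without H9-A4. FURIN, a protease that cuts precursor neurotrophins inside the cell and the most abundant gene of that list, was at 89.8 to 94.4 CPM in parental RKO and at 74.9 to 118 CPM in the clones, which lay on both sides of the parental samples. Among 9 tested partners and effectors of NGFR, IRAK1, a kinase of the pathway to NF-kB, rose by 1.82 (SE 0.14) and RIPK2, another such kinase, by 0.66 (SE 0.14) on the log2 scale, and RTN4R, the Nogo receptor that forms a complex with NGFR, fell by 1.25 (SE 0.25), all without H9-A4. IRAK1 was at 172 and 153 CPM in parental RKO, 510 to 643 CPM in 6 clones and 99.6 CPM in H9-A4.

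Of 21 tested transcription factors studied at the BDNF gene, 3 were called higher without H9-A4 and none was called lower. By the sign of the log2 fold change over all clones in that fit, 15 were higher and 6 lower. Over all 15390 genes of that fit, 690 were called higher and 688 lower. BHLHE40, a repressor with a basic helix-loop-helix domain, was at 25.8 and 17.0 CPM in parental RKO, 42.1 to 79.4 CPM in 6 clones and 8.61 CPM in H9-A4 (log2 fold change 1.37, SE 0.22, edgeR adjusted p = 0.00352). NFKB1, a subunit of NF-kB, rose by 0.53 (SE 0.11) and MEF2D, a factor of activity-dependent transcription, by 0.49 (SE 0.12) on the log2 scale. SIN3A, a corepressor and the most abundant gene of that list, was at 138 to 171 CPM and was not called. Of the 10 genes that BDNF signalling turns on, DUSP6, a phosphatase of the MAP kinase ERK, rose by 0.91 (SE 0.18, edgeR adjusted p = 0.0108) without H9-A4, and the other 9 were not called.

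Of 11 tested genes of other neurotrophic factors and their receptors, 1 was called higher and 1 lower without H9-A4. The share of all genes called in that fit was 8.95%. LIF, a cytokine of the interleukin 6 family, was at 67.2 and 75.7 CPM in parental RKO, 276 to 365 CPM in 6 clones and 32.3 CPM in H9-A4 (log2 fold change 2.16, SE 0.15, edgeR adjusted p = 9.04e-06). CNTF, another cytokine of that family, was listed at 0 in all 5 DIP2C+/- clones, at 0.827 and 0.475 CPM in E3 and C10 and at 0.56 and 0.399 CPM in parental RKO. The call for CNTF is uncertain, since its reads can be assigned to the read-through gene ZFP91-CNTF, which was at 1.58 to 12.9 CPM in these samples.

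The 13 genes called without H9-A4 were then read in H9-A4. They were called by edgeR in a fit that left this clone out, and edgeR called none of them with all 9 samples. DESeq2 with all 9 samples called NEDD4L, and CNTF in DIP2C+/-. BDNF was chosen as low in every clone. The values that follow are therefore a description, and the contrast between BDNF and the 13 genes follows in part from how they were chosen. H9-A4 lay on the same side of both parental samples as the mean of the other 6 clones for 3 of the 13 (23.1%; CNTF, NEDD4L and NFKB1), between the parental samples for 1 (RTN4R) and on the opposite side for 9 (69.2%). For CNTF only the mean of the 6 was lower, since E3 lay above both parental samples and C10 between them. Over all 1378 genes called without H9-A4 these shares were 39.0%, 18.9% and 42.0%. BDNF in H9-A4 differed from parental RKO by -3.17 in log2 CPM, and the mean of the other 6 clones by -3.19.

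**Figure D4:**
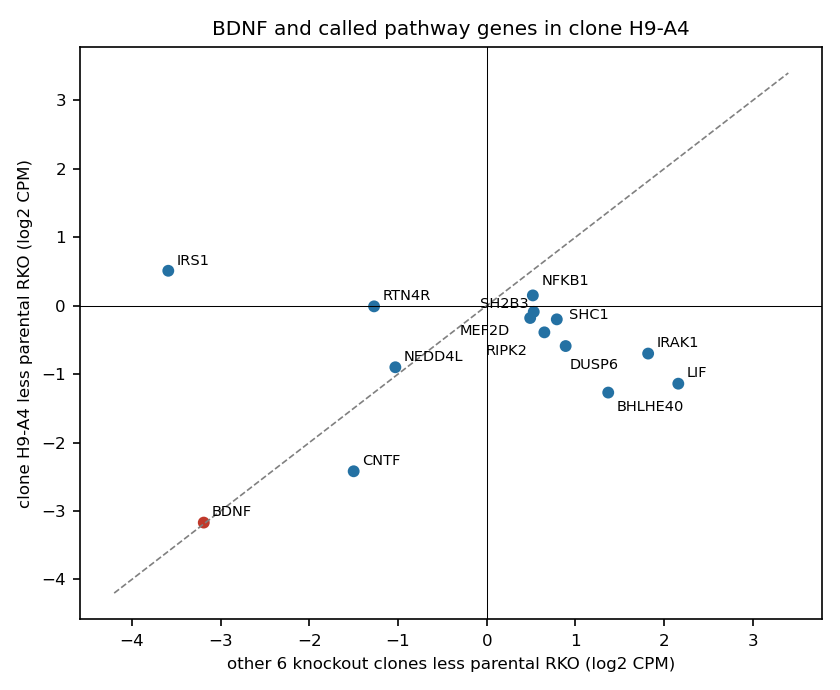
Difference in log2 CPM from the parental mean in clone H9-A4 (vertical axis) against that in the mean of the other 6 knockout clones (horizontal axis) for BDNF (red) and the 13 pathway genes called without H9-A4 (blue), with the line of equality dashed. BDNF (-3.19, -3.17) lies on the line, while IRS1 (-3.59, 0.51) and LIF (2.16, -1.14) lie on the opposite side of the parental level. BDNF was chosen as low in every clone and the 13 genes were called with H9-A4 left out, which bears on their places in the plot.

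The genes around BDNF on chromosome 11 differed among themselves. LIN7C, a scaffold protein gene that starts 215.3 kb downstream of the BDNF start, was at 80.5 to 133 CPM in the clones and 110 ± 20.8 CPM (SD, n = 2) in parental RKO (log2 fold change -0.08, edgeR adjusted p = 0.887). LGR4, a receptor for R-spondins 249.3 kb downstream, was at 34.2 and 26.6 CPM in parental RKO, 6.31 to 10.7 CPM in 6 clones and 21.4 CPM in H9-A4, and fell by 1.84 on the log2 scale without H9-A4 (edgeR adjusted p = 0.00035; 0.199 with 9 samples). CCDC34 beyond it fell by 1.06 without H9-A4 (edgeR adjusted p = 0.00719; 0.319 with 9 samples), with H9-A4 at 13.1 CPM near the parental 14.8 and 14.9 CPM. KIF18A, a kinesin gene upstream of BDNF, was at 12.2 to 21.1 CPM in the clones and 24.4 and 24.7 CPM in parental RKO and was not called (log2 fold change -0.48, edgeR adjusted p = 0.351). All 7 clones thus lay below both parental samples for LGR4, CCDC34 and KIF18A, an order that 5.56% of all genes tested had. They did not for LIN7C, METTL15, SLC5A12 and the antisense gene BDNF-AS. The log2 fold changes of SLC5A12 and BDNF-AS were 0.73 and 0.72. METTL15 upstream of BDNF and SLC5A12 downstream were not called either, and FIBIN and BBOX1 were too low to test.

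BDNF-AS, the antisense gene whose span overlaps that of BDNF by 43.3 kb, was at 0.469 and 0.233 CPM in parental RKO and 0.161 to 1.6 CPM in the clones, with the highest value in E3 (about 33 reads), and was not called (log2 fold change 0.72, edgeR adjusted p = 0.657). Whether counting used the strand is not given in the sources used here. If it did not, reads of BDNF and BDNF-AS in the overlap cannot be told apart.

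**Figure D5:**
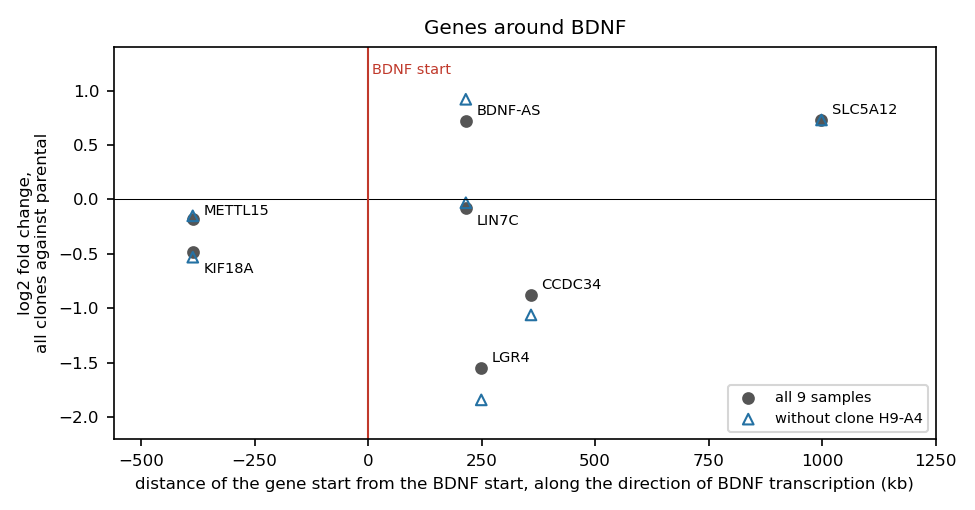
Log2 fold change of all clones against parental RKO (vertical axis) for the 7 tested genes around BDNF against the distance of their start from the BDNF start (horizontal axis, kb, positive in the direction of BDNF transcription), with all 9 samples (filled circles) and without H9-A4 (open triangles). LGR4 is at -1.55 and -1.84 and LIN7C, nearer to BDNF, at -0.08 and -0.03.

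The genes whose log2 CPM over the 9 samples was most like that of BDNF were DOCK9 (Pearson's r = 0.965), PCDHB11 (0.964), SLC23A2 (0.960), TNS4 (0.956) and KIF5C (0.940), out of 10600 genes whose parental mean reached 5 CPM. These values are a description, since all samples share the split between parental RKO and clones. The limit of 5 CPM was set on parental RKO alone. It therefore kept genes high only there, as BDNF is, and left out genes high only in the clones. TNS4, a focal adhesion protein of epithelial cells, was at 172 ± 8.43 CPM (SD, n = 2) in parental RKO and 0.255 to 1.17 CPM in the clones, a wider gap than that of BDNF. KIF5C, a motor protein of axonal transport, was at 7.2 ± 0.967 CPM and 0.34 to 1.85 CPM. DOCK9, an exchange factor for CDC42, was at 59.5 ± 8.38 CPM and 25.7 to 36.4 CPM. The choice of these 5 depended on the measure, as 1 of 5 remained with Spearman's rho and none without H9-A4.

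Markers of neurons and glia, of fibroblasts and of blood cells were low apart from 1 gene. TUBB3, a neuronal tubulin, was at 49.6 and 62.6 CPM in parental RKO, 6.72 to 19.7 CPM in 6 clones and 98.2 CPM in H9-A4. It fell by 2.01 on the log2 scale without H9-A4 (edgeR adjusted p = 0.00341). With all 9 samples none of the 5 tested neuron and glia markers was called, TUBB3 included. The summed level of the 8 neuron and glia markers was 52.6 to 64.9 CPM in parental RKO, 10.6 to 21.2 CPM in DIP2C-/- and 11.1 to 101 CPM in DIP2C+/-, with TUBB3 the largest part of it, down to 6.72 of 10.6 CPM in E3. The 6 fibroblast markers summed to 3.57 to 7.45 CPM. COL1A1, the one with the highest mean, reached 2.85 CPM, and LUM reached 4.98 CPM in 1 DIP2C+/- clone. The 5 blood cell markers summed to 1.11 to 2.38 CPM, with PTPRC at up to 0.82 CPM and LYZ at up to 1.05 CPM. Whether the levels of these markers bear on that of BDNF was not tested.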

How the data were processed

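RNA from 9 RKO samples, 1 library each, was sequenced by the authors on the Ion Proton system and aligned to hg19 with TopHat2 2.0.4. The deposited values are expected counts per gene that the authors made with Cufflinks, given as version 2.2.1 in the submitters' processing notes. Their scaling is not given in the sources used here. Low values were whole multiples (within 0.01 of a step) of 0.7109 to 1.1145 for 98.1% to 98.5% of genes, so reads are given as values divided by that step (17134472 to 24863895 reads implied per sample). Values were rounded and fitted in edgeR 4.0.16 (R 4.3.3) with TMM, filterByExpr and 1 coefficient per group over all 9 samples. Levels use unrounded values, and the prior count on the log scale was 2. Alternatives were DESeq2 1.42.0, other filters and scalings, only the compared groups, division by the step and leaving out each sample. The fitting script was tested on simulated data. Positions are from GENCODE on GRCh37, where 85.7% of symbols matched once. The upstream windows are RefSeq sequences placed on GRCh37 by exact match.

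The genes and lists were chosen with earlier results of these data known. Named were the 6 genes, DIP2C, the neurotrophin and receptor lists, list genes called with 9 samples or, being fewer than 20, without H9-A4, the most abundant gene of a list, the neighbours of BDNF and the 5 genes most like it. Some genes of the pathway are not reported here and were left out of the lists and their counts.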

Additional observations from a re-analysis of the deposited data

Results flagged for a closer look

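Within the 5 DIP2C+/- clones, 1 clone lay far from the other 4 for 6 of 30 genes examined, by Dixon's gap test. The test points by chance to about 1 in 20 groups, but the count cannot be read against that rate. The reason is that 16 of the named genes entered because edgeR called them without H9-A4 and not with all 9 samples. In 5 of the 6 the clone was H9-A4. IRS1 was at 461 CPM there against 23.7 to 31.6 CPM in the other 4 clones, LIF at 32.3 CPM against 303 to 365 CPM, and IRAK1 at 99.6 CPM against 518 to 643 CPM. TUBB3 was at 98.2 CPM against 9.45 to 19.4 CPM, and CCDC34 at 13.1 CPM against 5.41 to 6.77 CPM. The remaining gene was NTRK3, at 1.59 CPM in F6-A7 against 0.38 to 0.511 CPM. BDNF was not among them. The cause of these differences was not tested.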

How the results depend on the processing

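No paired analysis was possible because the clones carry no replicate numbers shared between groups. Depth limits NTF3 and NGFR, which had at most 7 reads in any sample. The counts of called genes depended on the fit. For DIP2C-/- they were 1 with all 9 samples in edgeR, 250 in DESeq2, 3 without a filter, 0 with at least 10 counts in every sample and 1807 with only the compared groups. For DIP2C+/- they were 15, 187 in DESeq2 and 8 under both the stricter filter and only the compared groups. For all clones they were 28, 289 in DESeq2 and 11 under the stricter filter. For DIP2C+/- against DIP2C-/- they were 0, with 6 in DESeq2 and 1 with only the compared groups. Leaving out 1 sample gave 1 to 733, 1 to 1224, 1 to 1378 and 0 to 3 genes, the highest of the first 3 without H9-A4. Of 95 pathway genes, DESeq2 called 1, 2 and 1 in the comparisons with parental RKO. Only the compared groups gave 14 of 91 tested for DIP2C-/-, beside 1807 of 14381 over all genes tested. For DIP2C+/- they gave 1 of 93, beside 8 of 14880. Leaving out 1 sample (94 to 101 pathway genes tested) gave 0 to 7, 0 to 12 and 0 to 13. The genes most like BDNF shared 1 of 5 with Spearman's rho and 0 to 5 when 1 sample was left out. The log2 level of BDNF less parental RKO stayed at -2.67 to -2.59 in DIP2C-/-, -3.53 to -3.25 in DIP2C+/- and -3.29 to -3.04 in all clones when 1 sample was left out.

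Direction turned only when 1 sample was left out. The log2 fold change of NTRK2 ran from -0.26 to 0.66 (DIP2C-/-), -0.17 to 0.5 (DIP2C+/-), -0.13 to 0.53 (all clones) and -0.53 to 0.39 between genotypes. That of NTRK3 ran from -0.13 to 0.93, -0.08 to 1.09, -0.01 to 1.05 and -0.41 to 0.37, and that of SORT1 between genotypes from -0.1 to 0.01. In DIP2C-/-, the log2 level less parental ran from -0.19 to 0.68 for NTRK2 and -0.22 to 0.83 for NGFR. DIP2C passed in 7 comparisons under alternative settings, DESeq2 on all 9 samples among them, that it missed in edgeR with 9 samples. The cause was not tested.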
